A study of Homo sapiens with 13 samples.

Results

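The 42 genes described here encode proteins that drive cells into mitosis, build the spindle, hold chromosomes on it and divide the cell. They were measured in 13 untreated cell lines of acute lymphoblastic leukemia (ALL), with 1 Affymetrix HG-U133 Plus 2.0 array per line. The members were given as a list of symbols. Each was read from the probe set annotated to that symbol alone, and where a gene had several such probe sets, from the one with the highest mean over the 13 arrays. All 42 were among the 18549 genes with a probe set of their own, and all 42 were among the 12559 genes kept for testing, which were above the median of their array in at least 3 lines. The 7 T-ALL lines, derived from leukemias of T-cell precursors, were Jurkat, Molt4, CCRF-CEM, HPB-ALL, ALL-SIL, TALL-1 and P12-ICHIKAWA. The 6 BCP-ALL lines, derived from leukemias of B-cell precursors, were Nalm6, Nalm16, Nalm30, REH, RS4;11 (written RS4,11 in the labels) and 697. All lines were kept in the same serum-supplemented medium without any drug, and each is an established culture, which does not stand for its lineage. Whether each line stands for a leukemia of its own was not tested, and the arrays of P12-ICHIKAWA and TALL-1 were nearly the same (r = 0.993). Values are on the log2 scale of the deposited table, on which 16 was added to each signal, so that the lowest possible value is 4 and differences of dim genes are understated. An increase of 1 on this scale is a doubling of the signal with the 16 included, and folds are on that scale.

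Entry into mitosis is driven by the kinase CDK1 bound to a cyclin, and the kinases PLK1, AURKA and AURKB act beside it on centrosomes, the spindle and chromosomes. The spindle checkpoint proteins hold the anaphase-promoting complex, with its activator CDC20, inactive until every kinetochore is attached to microtubules. The complex then marks securin and the B-type cyclins for destruction, so that sister chromatids part and the cell divides. Most of these genes are transcribed late in the cell cycle, and their RNA is widely used as a sign of how many cells of a culture are cycling. The spindle is also the target of vincristine, a standard drug of ALL therapy. In RNA from a whole culture, fewer cells in mitosis and less RNA in each of them cannot be told apart.

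Nalm16 and Nalm30 stood apart from the other lines over the whole array, which bears on every result below. The upper quartile of all probe sets was 6.54 in Nalm16 and 6.89 in Nalm30, against 7.04 to 7.33 in the other 11 lines, and 27.7% of all genes kept had their lowest value of the 13 lines in Nalm16. The arrays of P12-ICHIKAWA and TALL-1 correlated at r = 0.993 over all probe sets, and those of Nalm16 and Nalm30 at 0.959, the closest and the next closest pair. The difference between the 3' and 5' probe sets, a sign of RNA quality, was 0.40 log2 units in Nalm16 and 0.54 in Nalm30 for ACTB, against 0.09 to 0.57 in the other 11 lines. For GAPDH it was 0.21 in Nalm16, the highest of all lines, and 0.10 in Nalm30, against -0.07 to 0.18 in the others, and its part in the results was not tested. The lineage labels matched the markers: 9 of 10 T-cell markers were higher and 9 of 9 measured B-cell precursor markers lower in T-ALL (limma, adjusted p under 0.05), and CD2 was the T-cell marker that did not pass. Of 7 myeloid markers measured, 4 were kept and 0 differed between the lineages, with list means of 5.85 to 6.24 in T-ALL lines and 5.85 to 7.90 in BCP-ALL lines. Single lines were high all the same: MPO was 12.11 in REH and at most 5.50 in the others. LYZ was 11.20 in Nalm6 and at most 7.90 in the others.

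The start regions of the members shared short sequence motifs that are less common among all genes. Promoters of late cell cycle genes are known for the cell cycle genes homology region, with the core TTTGAA, which is bound by the MuvB core of the DREAM complex, and for the CCAAT box, bound by NF-Y. RefSeq promoter windows (GRCh38.p14, 250 bases before to 50 after the annotated start) were given for 35 members. On either strand, TTTGAA was found in 23 of these 35 windows (65.7%), against 15.4% of 27305 promoters of all genes and 10.2% of 10192 promoters of the genes kept. CCAAT was found in 27 (77.1%), against 35.7% and 36.9%, and both motifs in 19 (54.3%), against 6.08% and 4.19%. These matches describe the letters only and show no binding. Windows were not used for AURKA, BIRC5, BUB3, PBK, TPX2, TTK and UBE2C. The windows of 4 members are shown because they span the patterns described further on: CCNB2 and PLK1, which were not low in Nalm16 and Nalm30 together, and HMMR and ECT2, which were. TTTGAA and CCAAT, or their reverse complements TTCAAA and ATTGG, are in capitals, and all 4 windows are written 5′ to 3′ on the plus strand of their chromosomes.
CCNB2, chr15:59104896-59105195: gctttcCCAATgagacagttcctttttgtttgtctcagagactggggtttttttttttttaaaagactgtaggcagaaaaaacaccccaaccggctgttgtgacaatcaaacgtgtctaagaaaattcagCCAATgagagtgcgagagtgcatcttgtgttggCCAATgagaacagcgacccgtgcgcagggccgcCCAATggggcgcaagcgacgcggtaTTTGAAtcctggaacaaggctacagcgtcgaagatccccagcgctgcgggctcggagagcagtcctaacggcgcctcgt
PLK1, chr16:23678639-23678938: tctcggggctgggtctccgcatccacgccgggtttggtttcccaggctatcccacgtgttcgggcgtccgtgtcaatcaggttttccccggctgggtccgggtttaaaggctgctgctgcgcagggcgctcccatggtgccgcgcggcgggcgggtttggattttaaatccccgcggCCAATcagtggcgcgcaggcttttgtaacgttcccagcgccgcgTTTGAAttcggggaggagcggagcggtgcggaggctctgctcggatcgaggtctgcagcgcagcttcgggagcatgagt
HMMR, chr5:163460382-163460681: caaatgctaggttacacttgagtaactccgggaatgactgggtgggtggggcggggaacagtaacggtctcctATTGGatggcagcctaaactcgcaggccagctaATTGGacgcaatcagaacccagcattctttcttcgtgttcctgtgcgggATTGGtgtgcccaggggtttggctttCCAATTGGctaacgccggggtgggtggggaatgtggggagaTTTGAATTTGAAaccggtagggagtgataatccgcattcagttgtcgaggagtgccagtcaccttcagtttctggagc
ECT2, chr3:172750476-172750775: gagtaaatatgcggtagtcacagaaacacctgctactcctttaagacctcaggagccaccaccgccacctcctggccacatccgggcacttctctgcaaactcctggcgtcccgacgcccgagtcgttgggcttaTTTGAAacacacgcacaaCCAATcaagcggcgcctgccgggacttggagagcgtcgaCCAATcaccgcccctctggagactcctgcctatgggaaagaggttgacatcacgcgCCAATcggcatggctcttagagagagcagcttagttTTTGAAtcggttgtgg
In both CCNB2 and PLK1 the first base of TTTGAA lay 29 bases before the start, and in CCNB2 the CCAAT boxes began 54, 87 and 120 bases before it, each 33 bases from the next, with another at 244. PLK1 had a single CCAAT, 73 bases before the start. HMMR held TTTGAA at 28 and 22 bases before the start, back to back, and 5 CCAAT matches, of which a forward and a reverse one overlap. ECT2 held TTTGAA 115 bases before and 34 bases after the start, and CCAAT at 97, 58 and 2 bases before it.

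The level of the members was lowest in 3 BCP-ALL lines and between -0.12 and 0.39 in the other 10 lines. For each gene the mean over the 13 lines was subtracted, and these deviations were averaged over the 42 members in each line. In T-ALL the mean deviation was 0.39 in CCRF-CEM, 0.38 in HPB-ALL, 0.36 in TALL-1, 0.32 in P12-ICHIKAWA, 0.16 in Jurkat, 0.15 in Molt4 and 0.04 in ALL-SIL. In BCP-ALL it was 0.36 in REH, 0.15 in 697, -0.12 in Nalm6, -0.35 in RS4;11, -0.59 in Nalm30 and -1.26 in Nalm16. The T-ALL lines were alike, with a mean of 0.257 ± 0.140 (SD, n = 7), while the BCP-ALL lines spread from -1.26 to 0.36 with a mean of -0.300 ± 0.580 (SD, n = 6). REH and 697 lay inside the range of the T-ALL lines. Over all genes kept, the same deviation was -0.31 in Nalm16, -0.07 in Nalm30, 0.12 in CCRF-CEM and REH and 0.13 in Jurkat. It was -0.03 to 0.04 in the other lines. The SD of the members' deviations was 0.31 to 0.57 in 11 lines, 0.99 in Nalm30 and 1.37 in Nalm16. This is a spread between genes and does not measure the error of a line's mean. With 1 array per line, the order of the lines was not tested.

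**Figure D1:**
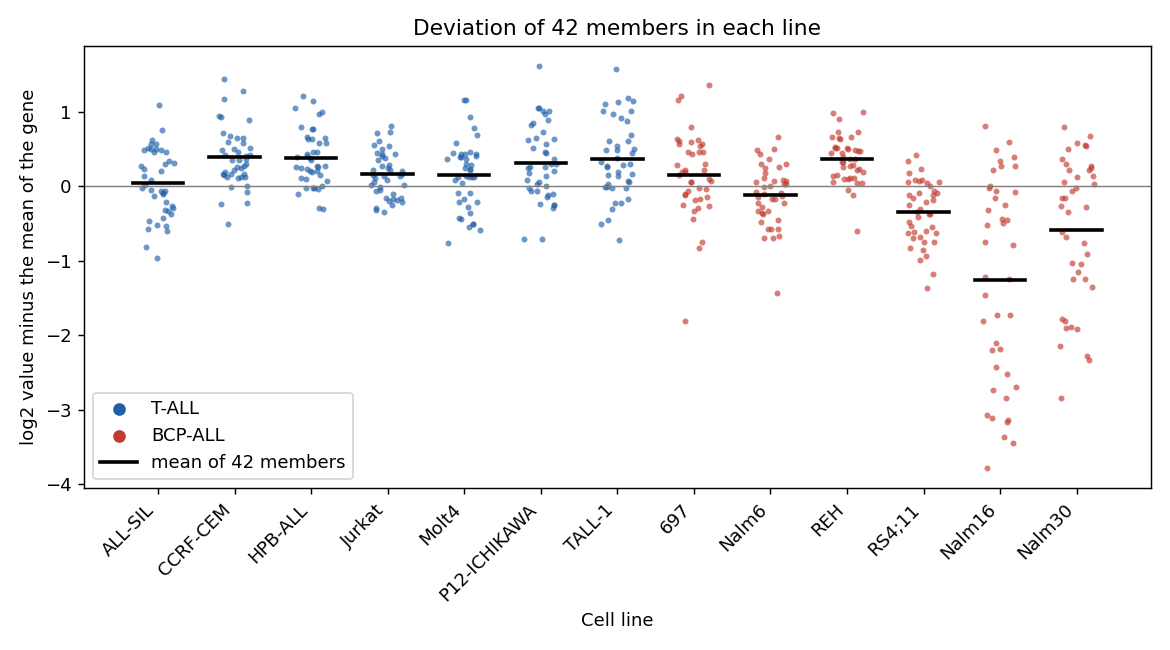
Log2 value minus the mean of the gene over 13 lines (vertical axis) for each of 42 members (points) in each line, T-ALL in blue and BCP-ALL in red, with the mean of the members as a black bar. The bars lie between 0.04 and 0.39 in the 7 T-ALL lines, and the points reach below -3 only in Nalm16.

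In RS4;11 and Nalm16 the low mean was made up differently. In RS4;11 most members were a little low, and 5 of 42 lay above their own median over the lines. Of the members there, 2 (4.76%, against 4.94% of all genes kept) lay more than 1 log2 unit below their mean. The highest deviation was 0.42 (MAD2L1). In Nalm16, 7 lay above their median, and 21 (50%) were more than 1 below their mean, against 24.5% of all genes kept. In Nalm30, 15 lay above their median and 15 (35.7%) more than 1 below their mean, against 15.3% of all genes. Nalm16 held the lowest value of the 13 lines for 25 of 42 members (59.5%), against 27.7% of all genes. Nalm6 held it for 7 (16.7%, against 6.84% of all genes), among them CDC25B, CDC25C, TPX2, PRC1 and PTTG1. At the other end, REH had 33 members and CCRF-CEM 32 above their own median, and both lines were also above the mean over all genes kept (by 0.12 each). The shares of all genes above their own median are not given here.

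**Figure D2:**
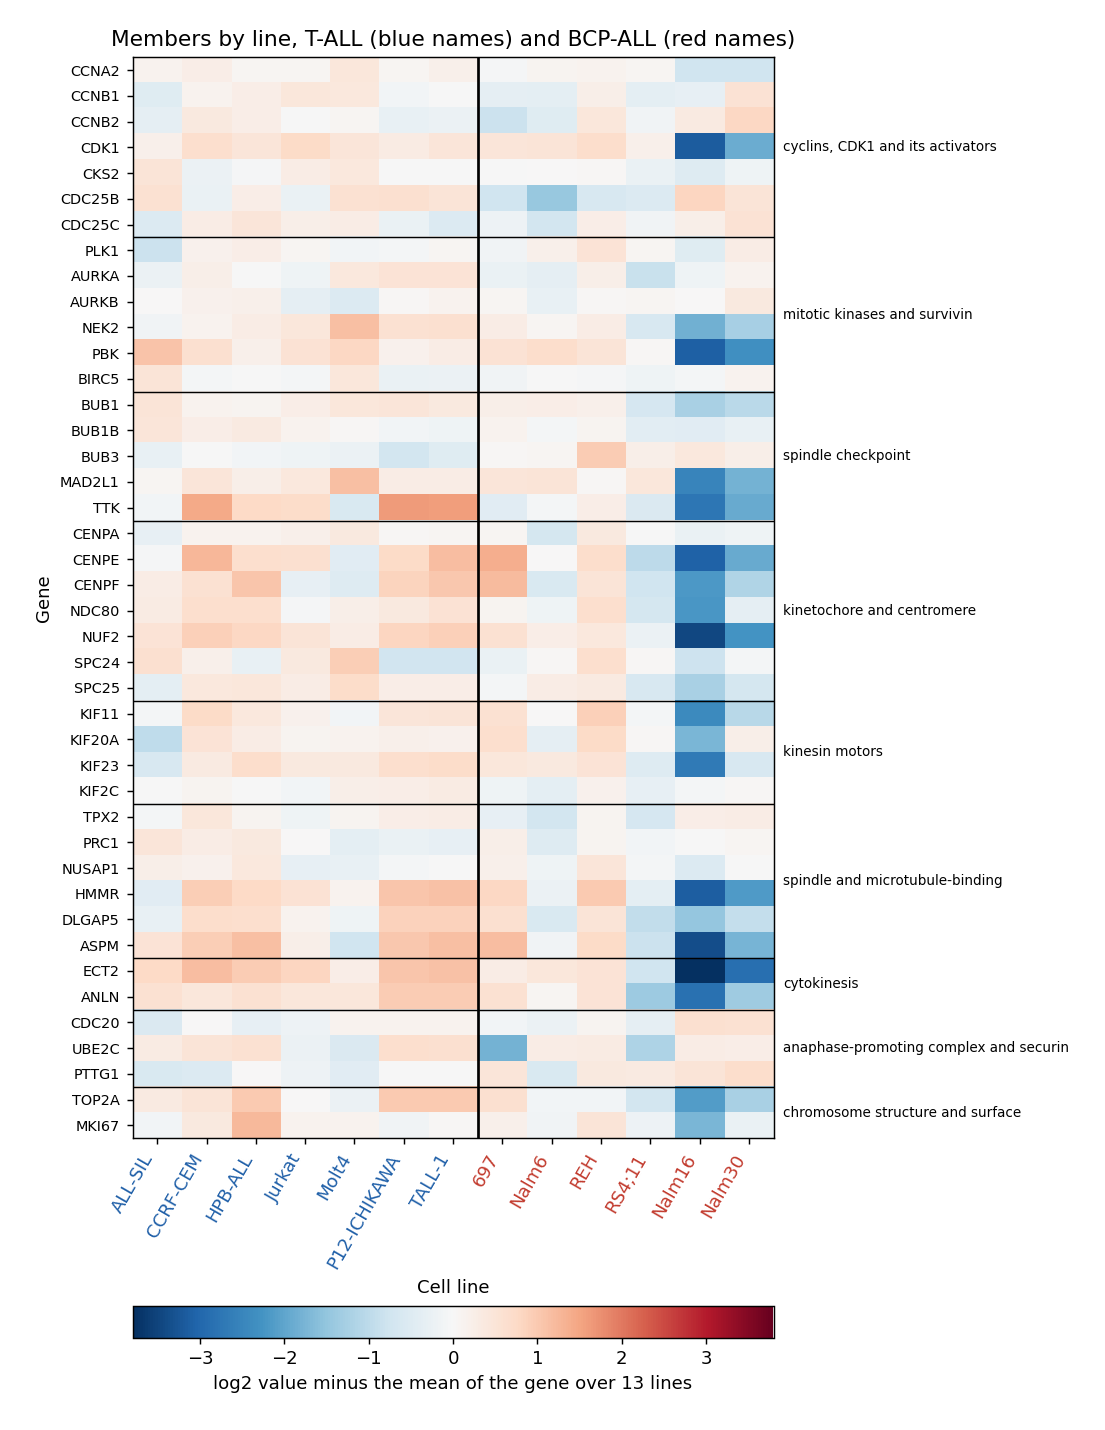
Deviation of each member (vertical axis, grouped by role) from its mean over 13 lines, as color on a log2 scale, by cell line (horizontal axis), with T-ALL left and BCP-ALL right of the black line. Dark blue cells, down to -3.79 for ECT2, are in Nalm16 and less so in Nalm30, beside members such as CDC20 and PTTG1 that are pale red in both.

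Within Nalm16 and Nalm30 the members ranged from far below their means to above them, with deviations of -3.79 to 0.81 in Nalm16 and -2.85 to 0.79 in Nalm30. Both lines lay below all of the other 11 for 18 of 42 members (42.9%), against 20.5% of all genes kept. These 18, grouped after their values were seen and so given no test, were CCNA2, CDK1, NEK2, PBK, BUB1, MAD2L1, TTK, CENPE, CENPF, NUF2, SPC25, KIF11, KIF23, HMMR, ASPM, ECT2, TOP2A and MKI67. Conversely, 9 members were at or above their 13-line mean in Nalm16 (42.1% of all genes were) and 16 in Nalm30. The 9 were CCNB2, CDC25B, CDC25C, AURKB, BUB3, TPX2, CDC20, UBE2C and PTTG1, and all of them were also at or above the mean in Nalm30. The other 15 members were in neither group, among them NDC80 and KIF20A, which were low in Nalm16 (-2.20 and -1.73) and deviated by -0.35 and 0.22 in Nalm30. Some margins were small: in Nalm30, KIF23 lay 0.01 and MKI67 0.08 below the next of the other 11 lines. ANLN (-1.36) and DLGAP5 (-0.90) deviated more there but were outside the 18, because another line was lower. Over the 11 other lines the median range of a member was 1.28 log2 units, against 1.30 for all genes kept.

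**Figure D3:**
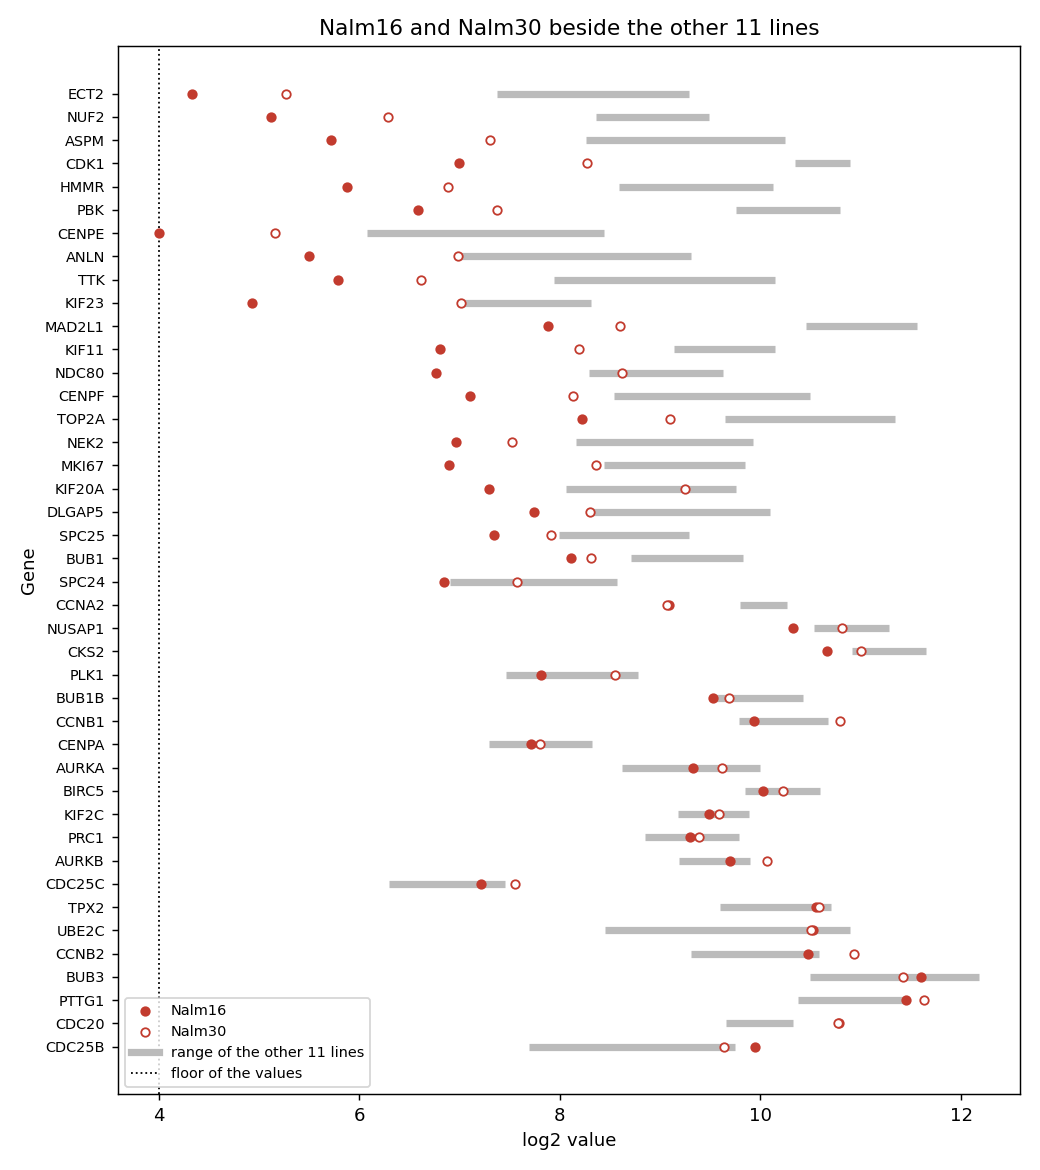
Log2 values of the members (vertical axis, ordered by their deviation in Nalm16) in Nalm16 (filled circles) and Nalm30 (open circles), with the range of the other 11 lines as grey bars and the floor of the values at 4 as a dotted line. From ECT2 at the top the circles lie left of the bars, and at the bottom CDC20 (10.78 and 10.77) lies to the right of its bar, whose upper end is 10.32.

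CDK1 and cyclin A2 were low in Nalm16 and Nalm30, and the B-type cyclins were not low there to the same extent. CDK1, the kinase that starts mitosis, was 10.37 (ALL-SIL) at the lowest, 10.62 at the median and 10.89 (Jurkat) at the highest in T-ALL, against 6.996 (Nalm16), 10.49 and 10.83 (REH) in BCP-ALL. Nalm30 had 8.28, and the other 4 BCP-ALL lines, from 10.35 upward, overlapped T-ALL, so that on the deposited scale the lowest of the other 11 lines stood 10.2-fold above Nalm16. Its other 3 probe sets were also below their means in both lines. CCNB1, the cyclin B1 that CDK1 needs, had 9.78 (ALL-SIL), 10.38 and 10.68 (Jurkat) in T-ALL, and 9.88 (RS4;11), 9.93 and 10.79 (Nalm30) in BCP-ALL. It was 9.93 in Nalm16, a deviation of -0.32, and its other probe set deviated by -0.96 there and by 0.04 in Nalm30. CCNB2, the second B-type cyclin, was highest of all lines in Nalm30 (10.93), stood at 10.48 in Nalm16 and was lowest in 697 (9.31). CCNA2, cyclin A2, which acts from S phase to early mitosis, was at 9.91 to 10.27 in T-ALL and at 9.80 to 9.97 in 4 BCP-ALL lines, with 9.08 in Nalm16 and 9.07 in Nalm30. CKS2, a small CDK-binding subunit, was nearly even over the lines (SD 0.27), at 10.94 to 11.65 in T-ALL and 10.67 to 11.21 in BCP-ALL. Of the phosphatases that activate CDK1, CDC25B ranged over 8.88 to 9.75 in T-ALL and over 7.69 (Nalm6) to 9.94 (Nalm16) in BCP-ALL, and CDC25C over 6.48 to 7.46 in T-ALL and over 6.30 (Nalm6) to 7.55 (Nalm30) in BCP-ALL.

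The 3 best known mitotic kinases besides CDK1 varied little. PLK1, which matures centrosomes and helps to activate CDK1, had 7.46 (ALL-SIL), 8.33 and 8.51 (HPB-ALL) in T-ALL, and 7.81 (Nalm16), 8.40 and 8.78 (REH) in BCP-ALL. AURKA, the aurora kinase of spindle poles, had 9.27 (ALL-SIL), 9.70 and 9.99 (P12-ICHIKAWA) in T-ALL, and 8.62 (RS4;11), 9.28 and 9.72 (REH) in BCP-ALL. AURKB, the aurora kinase of the chromosomal passenger complex, had 9.18 (Molt4), 9.73 and 9.89 (HPB-ALL) in T-ALL, and 9.41 (Nalm6), 9.75 and 10.06 (Nalm30) in BCP-ALL. The lineages overlapped for all 3, and AURKB was among the 4 members of smallest SD (0.24). BIRC5, survivin, which sits in the same complex, was another of these 4 (SD 0.23), with 9.85 to 10.59 in T-ALL and 9.94 to 10.22 in BCP-ALL. NEK2, a centrosome kinase, and PBK, a kinase active in mitosis, belonged to the low group instead. NEK2 was 6.96 in Nalm16 and 7.53 in Nalm30, against 8.16 to 9.93 in the other lines, and PBK 6.59 and 7.37, against 9.76 to 10.80.

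Among the spindle checkpoint genes, the kinase TTK and the adaptor BUB3 had the smallest p between lineages, in opposite directions. TTK, the checkpoint kinase MPS1, had 7.94 (Molt4), 9.30 and 10.14 (P12-ICHIKAWA) in T-ALL, against 5.79 (Nalm16), 8.03 and 8.79 (REH) in BCP-ALL. In T-ALL, 5 of 7 lines were above every BCP-ALL line, and Molt4 and ALL-SIL (8.43) were within the BCP-ALL range. The highest of the 5 were P12-ICHIKAWA and TALL-1 (10.11), whose arrays were nearly the same. BUB3, which binds BUB1 and BUB1B to kinetochores, had 10.50 (P12-ICHIKAWA), 11.00 and 11.19 (CCRF-CEM) in T-ALL, against 11.26 (697), 11.43 and 12.18 (REH) in BCP-ALL. It was the only member whose lineages did not overlap. BUB1, a checkpoint kinase, had 9.45 (HPB-ALL), 9.72 and 9.82 (ALL-SIL) in T-ALL, and 8.11 (Nalm16), 9.12 and 9.58 (Nalm6) in BCP-ALL. Its T-ALL lines lay between 9.45 and 9.82, while Nalm16, Nalm30 (8.31) and RS4;11 (8.71) lay below all of them. MAD2L1, the MAD2 protein that holds CDC20, was 7.88 in Nalm16 and 8.60 in Nalm30, against 10.46 to 11.56 in the other lines. BUB1B, the checkpoint protein BUBR1, stayed within 9.53 to 10.43 in all 13 lines.

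The kinetochore genes were low in Nalm16 to unequal extents, also within 1 complex. NDC80, NUF2, SPC24 and SPC25 together form the NDC80 complex, which ties microtubules to the kinetochore. NUF2 had 8.86 (Molt4), 9.36 and 9.48 (TALL-1) in T-ALL, against 5.12 (Nalm16), 8.59 and 9.14 (697) in BCP-ALL, with 6.28 in Nalm30. NDC80 had 8.92 (Jurkat), 9.33 and 9.62 (CCRF-CEM) in T-ALL, against 6.77 (Nalm16), 8.71 and 9.61 (REH) in BCP-ALL. Unlike NUF2, it was higher in Nalm30 (8.62) than in RS4;11 (8.29). SPC25 deviated by -1.24 in Nalm16 and -0.68 in Nalm30, and SPC24 by -0.79 and -0.06. SPC24 was also low in P12-ICHIKAWA (6.92) and TALL-1 (6.91), the T-ALL lines whose arrays were nearly the same. CENPE, a kinesin that moves chromosomes to the spindle equator, had 6.64 (Molt4), 7.70 and 8.35 (CCRF-CEM) in T-ALL, against 4 (Nalm16), 6.58 and 8.44 (697) in BCP-ALL. The Nalm16 value is the floor of the table, so its distance to the other lines is a lower limit. CENPF, a large kinetochore protein, was 7.10 in Nalm16, 8.13 in Nalm30 and 8.54 to 10.49 elsewhere, and CENPA, the histone variant of centromeres, ranged over 7.29 to 8.32 in all lines.

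Of the 4 kinesin motors, KIF11, which pushes spindle poles apart, and KIF23, a motor of the central spindle, were low in both lines. KIF11 was 6.81 in Nalm16 and 8.19 in Nalm30, against 9.14 to 10.14 in the other 11, and KIF23 was 4.93 and 7.01, against 7.03 to 8.31. KIF20A, a motor needed for cytokinesis, was low in Nalm16 (7.30) but not in Nalm30 (9.24). It was also low in ALL-SIL (8.07), with 8.69 or more in the others. KIF2C, which takes microtubules apart at the centromere, had the smallest SD of all members (0.21), with 9.46 to 9.88 in T-ALL and 9.18 to 9.71 in BCP-ALL. HMMR, a microtubule-binding protein of the spindle, had 8.59 (ALL-SIL), 9.79 and 10.13 (TALL-1) in T-ALL, against 5.88 (Nalm16), 8.73 and 10.02 (REH) in BCP-ALL. ASPM, a protein of spindle poles, had 8.32 (Molt4), 10.01 and 10.23 (TALL-1) in T-ALL, against 5.72 (Nalm16), 8.61 and 10.25 (697) in BCP-ALL. Both had Nalm30 second lowest, at 6.88 and 7.31. DLGAP5, which stabilizes microtubules near chromosomes, had 8.94 (ALL-SIL) to 10.10 (P12-ICHIKAWA) in T-ALL and 7.74 (Nalm16) to 9.83 (697) in BCP-ALL. The other spindle binders were close to even: TPX2, which activates AURKA, lay between 9.59 and 10.71, PRC1, which bundles microtubules of the central spindle, between 8.85 and 9.78, and NUSAP1, which binds microtubules near chromatin, between 10.32 and 11.28.

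The 2 cytokinesis genes were the lowest group of members in Nalm16 and Nalm30, and CDC20, UBE2C and securin were above their means there. ECT2, the exchange factor that switches on RHOA where the cell will cleave, had 8.37 (Molt4), 9.09 and 9.29 (CCRF-CEM) in T-ALL, against 4.34 (Nalm16), 7.90 and 8.65 (REH) in BCP-ALL. With 5.27 in Nalm30 and 7.38 in RS4;11 it had the largest SD of all members (1.57). ANLN, anillin, which scaffolds the contractile ring, had 8.76 (CCRF-CEM), 8.91 and 9.31 (TALL-1) in T-ALL, against 5.50 (Nalm16), 7.70 and 8.93 (697) in BCP-ALL, and RS4;11 (6.97) was as low as Nalm30 (6.98). Together these genes averaged -3.32 in Nalm16, -2.11 in Nalm30 and -1.06 in RS4;11. CDC20, the activator of the anaphase-promoting complex, was highest in Nalm16 (10.78) and Nalm30 (10.77), with 9.65 (ALL-SIL), 10.20 and 10.32 (TALL-1) in T-ALL and 9.84 (RS4;11) at the lowest in BCP-ALL. PTTG1, securin, had 10.39 (ALL-SIL), 10.75 and 10.96 (HPB-ALL) in T-ALL, against 10.38 (Nalm6), 11.37 and 11.63 (Nalm30) in BCP-ALL, where Nalm6 was the lowest of all 13 lines and the other 5 were above every T-ALL line. UBE2C, the ubiquitin-conjugating enzyme of the complex, was low in 697 (8.45) and RS4;11 (9.07) and at 9.70 to 10.90 in the others. CDC20, PTTG1 and UBE2C averaged 0.45 in Nalm16 and 0.50 in Nalm30.

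TOP2A, the topoisomerase that untangles sister chromatids, had 10.12 (Molt4), 10.83 and 11.34 (P12-ICHIKAWA) in T-ALL, against 8.22 (Nalm16), 9.93 and 10.94 (697) in BCP-ALL. MKI67, which encodes the proliferation marker Ki-67, a coat of mitotic chromosomes, had 8.48 (P12-ICHIKAWA), 8.76 and 9.84 (HPB-ALL) in T-ALL, against 6.89 (Nalm16), 8.46 and 9.10 (REH) in BCP-ALL. Nalm30 was at 9.09 for TOP2A and 8.36 for MKI67, in each case the second lowest line. HPB-ALL stood above every other line for MKI67, the next being REH.

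Between lineages, most members were higher in T-ALL on average, but 0 of 42 passed the test over all genes. The T-ALL minus BCP-ALL difference, from limma with Benjamini-Hochberg adjustment over all 12559 genes, was positive for 35 members and negative for 7 (BUB3, PTTG1, CDC20, PLK1, AURKB, CCNB2 and CDC25C). At an adjusted p under 0.05, 0 members were higher and 0 lower, where 7.64% of all genes passed, 3.97% higher and 3.68% lower. At an unadjusted p under 0.05, 10 were higher (23.8%, against 15.1% of all genes) and 2 lower (BUB3 and PTTG1, against 10.1%). Both directions made 28.6%, near the 25.3% of all genes. The median difference of the members was 0.54, against 0.03 for all genes kept, of which 53.0% were positive. The lineages did not overlap for 1 member with T-ALL lower (1.82% of all genes) and for 0 with T-ALL higher (1.89%). P-values measure only the spread between the lines, which have 1 array each. They count P12-ICHIKAWA and TALL-1, whose arrays correlated at r = 0.993, as separate lines. This pair held the highest TTK and the lowest BUB3 values of the T-ALL lines.

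**Figure D4:**
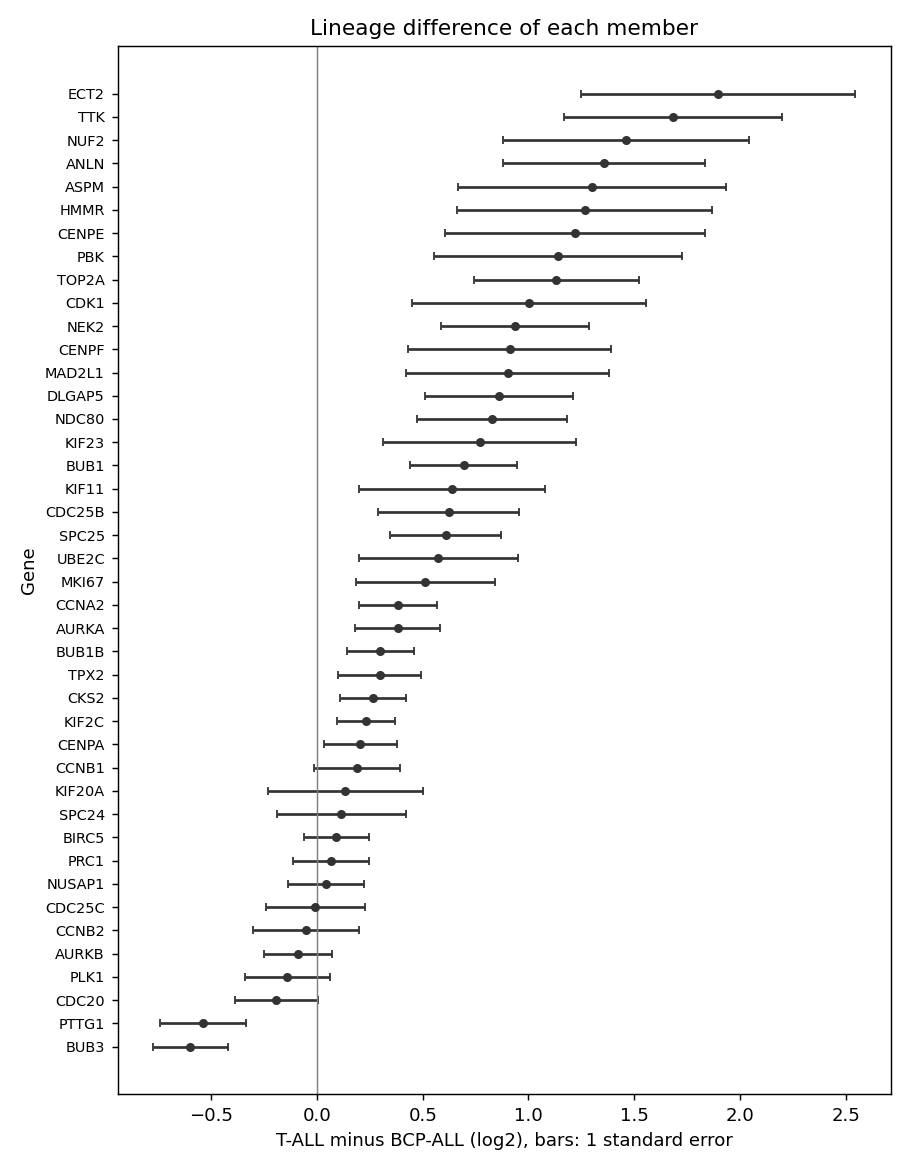
T-ALL minus BCP-ALL difference on the log2 scale (horizontal axis) of each member (vertical axis), with bars of 1 standard error from limma. Most points lie right of 0, from ECT2 (1.90) down, and BUB3 (-0.60) and PTTG1 (-0.54) lie farthest left.

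The members nearest the threshold were of both directions. BUB3 averaged 10.93 ± 0.24 in T-ALL (SD, n = 7) and 11.53 ± 0.35 in BCP-ALL (SD, n = 6), a difference of -0.60 (SE 0.18, adjusted p = 0.0566 by limma). TTK averaged 9.30 ± 0.86 in T-ALL and 7.62 ± 1.16 in BCP-ALL, a difference of 1.68 (SE 0.52, adjusted p = 0.0644), which is 3.21-fold on the deposited scale. ECT2 had the largest difference, 1.90 (SE 0.65, adjusted p = 0.0932), and TOP2A had 1.13 (SE 0.39, adjusted p = 0.094). The T-ALL lines were closer together than the BCP-ALL lines, with an SD of 0.32 against 1.86 for ECT2 and of 0.50 against 0.96 for TOP2A. ANLN (1.36, SE 0.48), BUB1 (0.69, SE 0.26), PTTG1 (-0.54, SE 0.20), NUF2 (1.46, SE 0.58) and NDC80 (0.83, SE 0.36) had adjusted p of 0.102, 0.115, 0.123, 0.140 and 0.166. For CDK1 the difference was 1.003 (SE 0.56, adjusted p = 0.27) and for PLK1 -0.14 (SE 0.20, adjusted p = 0.697). Leaving out 1 line brought 1 member past the threshold in 4 of 13 fits: TTK without REH (adjusted p = 0.0389) or Molt4 (0.0419), TOP2A without 697 (0.041) and PTTG1 without Nalm6 (0.016). BUB3 passed with quantile normalization of the arrays (adjusted p = 0.033). Its p depended on the probe set. Read from its most variable probe set, BUB3 had a difference of -0.40 (adjusted p = 0.486 by limma). Read as the mean of all its probe sets, it had -0.34 (adjusted p = 0.254).

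The differences of the members were smaller on average without Nalm16 and Nalm30. In that fit the mean difference of the members was 0.25, against 0.56 with all lines. The median was 0.21, against 0.01 for all genes kept. Still positive were 34 members, with 5 higher and 1 lower at an unadjusted p under 0.05. The shares of all genes passing in this fit are not given here, so its counts are not set against a background. The difference of CDK1 was then 0.01 (SE 0.14), that of TTK 0.98 (SE 0.42, adjusted p = 0.236) and that of ECT2 0.75 (SE 0.26, adjusted p = 0.132). That of BUB3 was -0.61 (SE 0.20, adjusted p = 0.118). CDC25B, in which Nalm16 and Nalm30 were the highest of the BCP-ALL lines, passed in this fit, with 1.12 (SE 0.24, adjusted p = 0.0209). Leaving out Nalm16 alone gave a mean of 0.37 and a median of 0.35.

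Over the 13 lines the members did not move as 1 group. Pearson's r between 2 members averaged 0.28 over 861 pairs, with 160 pairs above 0.8 and 244 below 0. Set against the mean of the other members, 21 members had r over 0.8, among them all 18 that were low in both Nalm16 and Nalm30, and 8 had r below 0. The 18 were picked by their values in these lines, which also enter r, so their high r is no separate result. HMMR and NDC80 followed the others most closely (both r = 0.96), and ANLN came next (0.95). CDC20 (-0.51), PTTG1 (-0.48) and BUB3 (-0.37) ran most against them. These values were different without Nalm16 and Nalm30, where CDC20 had r = 0.57 and PTTG1 -0.01, while HMMR had 0.86 and NDC80 0.93. Of the 18 low members, MAD2L1 then had -0.23, PBK -0.08 and CCNA2 0.16, and the rest had 0.50 (CDK1) to 0.87 (NUF2). Within T-ALL the mean r between members was 0.09, and within BCP-ALL 0.30. Within T-ALL, CKS2 (-0.97), PBK (-0.84) and BIRC5 (-0.81) ran against the rest and DLGAP5 (0.91) and KIF11 (0.91) with it, over 7 lines of which P12-ICHIKAWA and TALL-1 are nearly 1.

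Both promoter motifs occurred among the low members and among the others. Of the 16 low members with a window, 12 held TTTGAA and 14 CCAAT, against 11 and 13 of the 19 others. CCNB2, with 4 CCAAT boxes and TTTGAA close to its start as printed above, was high in Nalm30, and HMMR, with 5 and 2, deviated by -2.14 there. Gene length did vary with the level in those lines. The deviations of the members had a Spearman correlation with the length of the gene of -0.51 in Nalm16, -0.49 in Nalm30 and -0.55 in RS4;11, and of 0.63 in HPB-ALL and 0.60 in CCRF-CEM, across 42 genes, which are not independent. Over all genes kept, the same values were -0.18, -0.18, -0.08, 0.16 and 0.07. The median length was 32.6 kb for the 18 low members, 17.6 kb for the other members and 28.7 kb for all genes kept. The part of gene length in these levels was not tested.

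Other probe sets of the same genes mostly gave the same picture. Of 25 further probe sets with a mean above 6, which cover 18 members, the median r with the one used was 0.84, and 24 had the same sign of lineage difference and 19 the same sign of deviation in Nalm16. The exceptions include BUB3, BIRC5 and CCNB2. For BUB3 in Nalm16, the probe set used, whose suffix (x_at) marks possible cross-hybridization, deviated by 0.40 there, while 3 others deviated by -0.61, -0.62 and -0.29. In all 4 of its other probe sets the T-ALL minus BCP-ALL difference was negative (-0.40, -0.22, -0.40 and -0.09). For BIRC5 the probe set used deviated by -0.07 in Nalm16 and 0.13 in Nalm30, while another, at r = 0.08 with it, deviated by -1.03 and -0.80. For CCNB2 the probe set used deviated by 0.34 and 0.79, while another, at r = -0.46, the lowest of the 25, deviated by -0.06 and -0.23. The even level of BIRC5 and the high level of CCNB2 in these lines thus hold for the probe sets used. PTTG1 and CENPA also were read from an x_at probe set.

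Genes around the members were compared with them as lists. Other mitosis genes, 72 kept, followed the members over the lines, with 40 lowest in Nalm16 (55.6%), and the line means of the lists correlated at r = 0.96 over 13 lines. In T-ALL 3 of them were higher and 0 lower at an adjusted p under 0.05, a share near the 3.97% of all genes, and the median difference was 0.33, against 0.03. The 3 were NCAPD3, a condensin II subunit (0.95, adjusted p = 0.0178), KIF15, a spindle kinesin (1.49, adjusted p = 0.0254), and SKA3, of the outer kinetochore (0.79, adjusted p = 0.046). KIF15 averaged 8.75 in T-ALL and 7.27 in BCP-ALL. The 39 DNA replication genes, which act in S phase, were less low in Nalm16, where 12 (30.8%) had their lowest value, near the 27.7% of all genes, and 0 passed between lineages. Of 13 core subunits and partners of the anaphase-promoting complex, CDC16 was higher in T-ALL (0.66, adjusted p = 0.0384), which is 1 of 13 against 3.97% of all genes, 0 were lower, and the median difference was 0.17. In Nalm16, 5 of the 13 (38.5%) had their lowest value, against 27.7% of all genes, and the list averaged -0.45 there and -0.14 in Nalm30. CDC27 (-2.19 in Nalm16 and -1.87 in Nalm30) and ANAPC10 (-2.17 and -0.94) were its lowest subunits in Nalm16, and both were named after their values were seen.

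**Figure D5:**
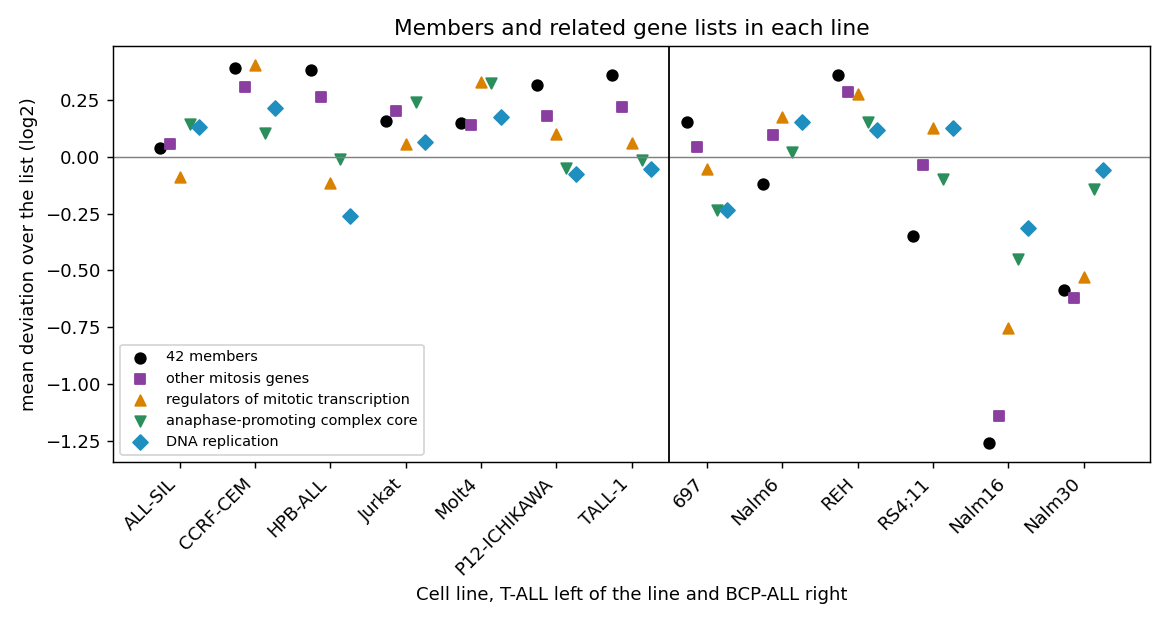
Mean deviation from the 13-line mean (vertical axis, log2) of the members and 4 related lists (symbols) in each line (horizontal axis). In Nalm16 the members (-1.26) and the other mitosis genes (-1.14) are lowest and the DNA replication genes (-0.31) are at the level of all genes.

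Among 15 regulators of mitotic transcription, E2F2, an activating E2F factor, was lower in T-ALL (-0.95, adjusted p = 0.0112) and TFDP2, a dimer partner of E2F, was higher (1.60, adjusted p = 0.0364). The median difference of the list was 0.04, and E2F1 (-0.55, adjusted p = 0.125) and RBL2 (0.69, adjusted p = 0.162) came next. The list averaged -0.75 in Nalm16 and -0.53 in Nalm30, with 8 of 15 below the mean in both (43.8% of all genes) and 5 at or above it in both, and 4 (26.7%) had their lowest value in Nalm16. Its line means correlated with those of the members at r = 0.79 over 13 lines that share lineage and, in part, overall signal. The list means and this r include TFDP1, which deviated by -4.87 in both Nalm16 and Nalm30 from the doubtful floor values given below. The MuvB subunits were not alike. LIN52 was above its mean in Nalm16 and Nalm30 (0.66 and 0.10). LIN37 deviated by -0.34 and 1.01 there, and RBBP4 by -0.52 and -0.74. The subunits LIN9 (-2.41 in Nalm16 and -1.90 in Nalm30) and LIN54 (-1.62 and -0.79) were low in both lines, as was RBL1, the pocket protein p107 (-2.64 and -1.54). FOXM1 and MYBL2, which act with MuvB to switch on late cell cycle genes, were not. FOXM1 was 8.43 in Nalm16, 9.03 in Nalm30 and 8.79 in RS4;11, and lowest in TALL-1 (7.46). MYBL2 was highest in Nalm16 (10.80) and Nalm30 (10.65) and lowest in ALL-SIL (7.96). TFDP1, the main partner of E2F, was listed at the floor of 4 in Nalm16, Nalm30 and HPB-ALL and at 9.26 or more in the other 10 lines. Its other probe sets were at 4.17 or less in these 3 lines and at 6.99 or more in the others, and whether the floor values are failed estimates or missing RNA is not known. The genes given by their values in Nalm16 and Nalm30 were singled out after these were seen.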

How the data were processed

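RNA of 13 untreated lines was hybridized to 1 array each. The authors deposited log2 values made with the iterPLIER+16 algorithm in Affymetrix Expression Console, with 16 added before the log. The version and the scaling between arrays are not given in the sources used here. Array medians ran from 5.05 to 5.37. The methods describe a night in fresh medium and a spin-column kit, the labels 30 h of culture and phenol-chloroform extraction. Values within 1 log2 unit of 4 are near the floor, as 3 of the members' values were.

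Of 42450 probe sets, 38145 named 1 gene by the platform annotation, 1742 listed several symbols (20 of these being names of 1 gene) and 2583 had no symbol. Lineages were compared with limma 3.58.1 in R 4.3.3 (lmFit, eBayes, Benjamini-Hochberg adjustment over 12559 genes, threshold 0.05), entering each line as 1 sample without covariates. The members' level by line and their likeness (Pearson's r) are descriptions without a test. On simulated T-ALL minus BCP-ALL data of 12559 genes, limma recovered 81 of 100 genes changed by 2 log2 units and 36 of 100 changed by 1. The simulated lines were independent and each gene had the same SD in both lineages. The real lines include closely alike pairs and unequal spreads, so these rates need not hold for the members. The number of lines limits the precision. Summaries and figures were made in Python 3.11.15 (pandas 2.3.3, numpy 2.4.6, matplotlib 3.10.9, scipy 1.17.1).

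Members, lists and tests were chosen with earlier results of these data known. Members described in full are the leading members of each role, those with the 6 largest and 4 smallest SDs, the 5 smallest p in each direction and the 3 highest and 3 lowest r, 22 in all. The others are given by range. Of other genes, the 10 most and the 5 least alike and up to 4 of each list with the smallest p are named. Sequences are those of RefSeq GRCh38.p14. Alternatives covered the probe set, the normalization, the filter, the variance model, related lines and each line left out in turn. Probe sets with several genes or none, doubling times of the lines, and CIT, ANAPC1 and CD33 were not analysed here.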

Additional observations from a re-analysis of the deposited data

Results flagged for a closer look

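Of 86 sets of values, 1 for each member and lineage and 1 for the line means of each lineage, 10 held a line far from the rest of its group by Dixon's criterion, which marks about 1 in 20 by chance. In T-ALL, ALL-SIL was low for 4 members: PLK1 at 7.46 with the next line at 8.18, SPC25 at 8.22 with the next at 8.85, KIF20A at 8.07 with the next at 9.15, and KIF23 at 7.03 with the next at 7.98. Molt4 was high for MAD2L1 (11.56, the next being 10.87) and HPB-ALL for MKI67 (9.84, the next being 8.99). In BCP-ALL, Nalm16 was low for KIF23 (4.93, the next being 7.01) and MKI67 (6.89, the next being 8.36). REH was high for BUB3 (12.18, the next being 11.60) and Nalm6 low for PTTG1 (10.38, the next being 11.29).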

How the results depend on the processing

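The number of genes called between lineages was 960 and ran from 617 to 1226 when 1 line was left out, with 633 without P12-ICHIKAWA and 617 without TALL-1, and it was 617 with P12-ICHIKAWA and TALL-1 as 1 sample. Of the members, 0 were higher and 0 lower in T-ALL, and 0 to 1 in either direction when 1 line was left out. With quantile normalization or an intensity trend with a robust prior 1 was lower (BUB3), with arrays centred on their medians 1 was lower (BUB3) and 1 higher (TTK), and with Nalm16 and Nalm30 left out 1 was higher (CDC25B). The cause of these changes was not tested. The mean difference of the members kept its sign throughout, from 0.365 to 0.690 with 1 line left out and at 0.245 without Nalm16 and Nalm30. Of the values of 22 members under 23 alternatives, 498 stayed on their side of the threshold, 8 passed it, and 1 of the 498 changed sign (CDC20, without Nalm16 and Nalm30, adjusted p = 0.905). The mean r between members ran from 0.218 to 0.315 with 1 line left out and was 0.242 without Nalm16 and Nalm30, an alternative chosen after seeing the data. It was 0.190 after quantile normalization. The mean deviation of the members in each line moved by less than the spread between lines in all 78 values. No paired analysis was possible because the replicate numbers only name lines in accession order. Signals near the floor limit CENPE, ECT2 and KIF23 in Nalm16.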

Other observations

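Among all genes kept, those whose pattern over the 13 lines was most like the mean of the members included 3 from the list of other mitosis genes among the first 10. By Pearson's r, the closest were ZC3H13 (0.98), DMXL1, AKAP11, TAF1L, KIF18A, CEP55, CCDC14, GABPA, BORA and PPWD1 (0.97). The 3 were KIF18A, a kinesin that limits chromosome movements, CEP55, which acts at the last step of cytokinesis, and BORA, which helps AURKA to activate PLK1. ZC3H13, a subunit of the RNA methylation machinery, averaged 8.47 in T-ALL and 7.60 in BCP-ALL, with 5.68 in Nalm16 and 7.18 in Nalm30. Without those lines its r was 0.90, and that of KIF18A 0.95. TAF1L was dim, at 5.66 or less in every line, and near the floor in Nalm16 (4.33) and Nalm30 (4.66). The genes running most against the members were APH1A, a subunit of gamma-secretase (-0.93), ALDH18A1, an enzyme of proline synthesis (-0.92), LOC100422781, SLC44A4 and SLC7A8 (-0.91). APH1A averaged 8.67 in T-ALL and 9.10 in BCP-ALL and was highest in Nalm16 (9.78), and without Nalm16 and Nalm30 its r was -0.76. The correlations rest on 13 lines that share lineage and, in part, overall signal, and are given as descriptions.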
